A study of Homo sapiens with 12 samples.

Results

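Granta-519 is a human mantle cell lymphoma line, and its response to silencing of cyclin D1 was measured by RNA sequencing in 6 of the 12 libraries of the study. These 6 were chosen by their labels alone: 3 libraries carry an shRNA against cyclin D1 (shCycD1) and 3 a control shRNA (shCtrl), and the other 6 are the same groups of a second mantle cell lymphoma line, JeKo-1. All cells of both groups went through lentiviral infection and selection with puromycin, so the controls share both. Time from infection to harvest, shRNA sequences and the number of shRNAs behind the name shCycD1 are not stated in the labels. Each group is 1 line and 1 labelled shRNA, and the design text calls the 3 libraries of a group biological replicates.

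Mantle cell lymphoma is a B-cell lymphoma in which a translocation places CCND1, the gene of cyclin D1, under the control of the immunoglobulin heavy chain locus. Cyclin D1 binds the kinases CDK4 and CDK6, and these complexes phosphorylate the retinoblastoma protein RB. Unphosphorylated RB holds E2F transcription factors, which drive the genes of DNA synthesis. The RB relatives p107 and p130 hold the DREAM complex on promoters of replication and mitosis genes, the latter through a short element called the CHR. The comparison asks which transcripts depend on cyclin D1 in this line.

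Some promoters are shown here because replication, mitosis and interferon genes are known to be read through short elements in them. Sequences are from RefSeq on GRCh38.p14. Each is a stretch of 120 bases from the 250 before the annotated start site, and it need not end at that site. All run 5′ to 3′ on the gene's strand, and capitals mark the searched element. The first pair are replication genes with an E2F site (TTTCCCGC, TTTCGCGC, TTTGCCGC or TTTGGCGC on either strand), namely GINS2 at chr16:85688955-85689074 on the minus strand and CDT1 at chr16:88803669-88803788 on the plus strand.
GINS2: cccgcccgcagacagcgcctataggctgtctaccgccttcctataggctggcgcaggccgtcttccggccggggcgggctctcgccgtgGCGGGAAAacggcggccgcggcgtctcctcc
CDT1: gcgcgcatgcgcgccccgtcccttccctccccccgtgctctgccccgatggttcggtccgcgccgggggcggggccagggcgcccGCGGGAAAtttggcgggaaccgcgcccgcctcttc
The next pair are mitosis genes with a CHR element (TTTGAA or TTCGAA on either strand), namely CDCA5 at chr11:65084041-65084160 on the minus strand and CDC20 at chr1:43358859-43358978 on the plus strand.
CDCA5: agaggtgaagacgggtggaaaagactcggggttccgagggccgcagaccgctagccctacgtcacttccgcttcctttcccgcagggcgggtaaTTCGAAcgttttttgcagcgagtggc
CDC20: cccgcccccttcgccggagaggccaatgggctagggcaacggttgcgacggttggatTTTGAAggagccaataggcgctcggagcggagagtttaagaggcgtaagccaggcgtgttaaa
The last pair are interferon-stimulated genes with an ISRE, the element bound by STAT and IRF factors (a pair of GAAA runs with 2 bases between them, on either strand), namely IFI6 at chr1:27672221-27672340 and EPSTI1 at chr13:42992242-42992361, both on the minus strand.
IFI6: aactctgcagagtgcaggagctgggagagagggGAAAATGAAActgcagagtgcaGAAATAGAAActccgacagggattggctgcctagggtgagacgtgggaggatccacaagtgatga
EPSTI1: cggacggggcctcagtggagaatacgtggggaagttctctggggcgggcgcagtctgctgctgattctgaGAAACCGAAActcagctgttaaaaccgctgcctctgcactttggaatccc
These 6 genes were chosen after their values were seen, as the called genes of their groups with the largest changes and an element within 100 bases of the start. GINS2, CDT1, CDCA5 and CDC20 were lower after silencing, and IFI6 and EPSTI1 higher.

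Over whole groups, the searched window ran from 250 bases before to 50 bases after the start. An E2F site lay in 34.4% of 64 DNA replication promoters, 44.4% of 27 promoters of origin licensing and helicase genes, 31.8% of 44 core histone promoters, 5.7% of the 9439 promoters of tested genes and 3.3% of all 27305 promoters in the table. A CHR element lay in 56.4% of 94 mitosis promoters and in 85.0% of 20 promoters of kinesins and cytokinesis genes, against 38.6% of 44 core histone promoters and 16.6% of all promoters. CCAAT boxes (CCAAT on either strand) stood in 61.7% of the mitosis promoters, 79.5% of the core histone promoters and 35.7% of all. The ISRE was found in 84.6% of 26 promoters of interferon-stimulated effectors and in 3.6% of all. Among tested genes the CHR, CCAAT and ISRE shares were 11.6, 37.8 and 3.0%. These matches describe letters in a window and measure no binding. Promoters were found for 81.2 to 90.9% of the tested members of these groups.

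Values were taken out of the deposited log to RPKM, reads scaled to gene length and library size. The length behind them was the genomic span, so levels are compared between libraries and never between genes. A gene was tested if it reached an RPKM of 1 in at least 3 of the 6 libraries, which 12668 of 23617 gene symbols did. The test was limma on log2(RPKM + 0.5), and a gene is called higher or lower in shCycD1 at a Benjamini-Hochberg adjusted p under 0.05 over all tested genes. Log2 changes are shCycD1 minus shCtrl with their standard error (SE), and this scale understates changes of low genes. By this rule 2840 genes (22.4%) were higher and 2303 (18.2%) lower, and the median of all tested genes was 0.03. The groups did not overlap in 6843 genes (54%). List members named below for the size of their change also had to show no overlap, so their separation was set by that choice. Changes of at least 1 on the log2 scale were less common, at 383 genes higher (3.02%) and 380 lower (3%). Across genes, Pearson's r was 0.981 to 0.988 between libraries of 1 group and 0.954 to 0.962 between groups.

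Each direction is relative to the rest of the same library. The tables also hold 92 ERCC spike-in RNAs, which are synthetic transcripts added to each sample. Their summed RPKM was 62352, 103800 and 66560 in shCtrl 1, 2 and 3, and 42458, 49079 and 45120 in the shCycD1 libraries. Every shCycD1 library was thus below every shCtrl library, and shCtrl 2 stood apart. Scaling to these spike-ins moved the median log2 change of all tested genes to 0.72, or to 0.49 without shCtrl 2. The labels do not state how much spike-in was added per cell. Under that scaling all 2840 genes called higher were still called higher. Of the 2303 called lower, 834 stood below 0, 122 of them still called lower, and 1469 stood above 0. A fall reported below therefore means a smaller share of the library, and 18 of the gene lists used here go from a median below 0 to one above 0 with spike-in scaling.

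**Figure D1:**
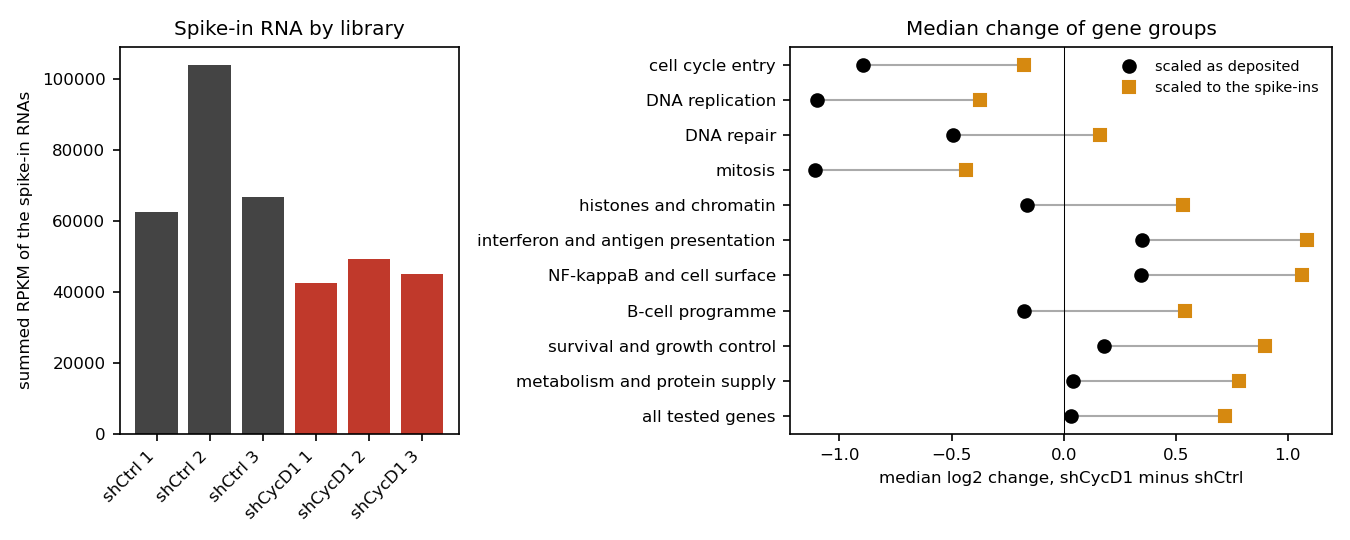
Left, summed RPKM of the spike-in RNAs in each of the 6 Granta-519 libraries. Right, median log2 change (shCycD1 minus shCtrl) of the tested genes of each group, scaled as deposited (circles) and to the spike-ins (squares). Spike-in scaling moves all groups up together, so DNA repair, histones and chromatin, and the B-cell programme go from below to above 0, while cell cycle entry, replication and mitosis stay below 0.

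The cells carried B-cell markers. All 7 B-cell markers examined were tested, and their summed level was 2315 to 2407 RPKM in shCtrl and 2116 to 2221 in shCycD1. MS4A1, which encodes CD20, stood at 930.4, 969.9 and 1045 RPKM in the control libraries and 989, 1070.5 and 1003 in the silenced ones, and these ranges overlapped (log2 change 0.057 ± 0.08, adjusted p = 0.592). CD79A (-0.28) and CD79B (-0.40), the signalling chains of the B-cell receptor, were called lower. With spike-in scaling they stood at 0.47 and 0.35, and leaving out 1 library ended the call of CD79A without shCtrl 1, or without shCycD1 2 or 3 (-0.28 to -0.25). CD5, an antigen that mantle cell lymphoma usually shows, was below the minimum with 0.163 to 0.383 RPKM in the 6 libraries. Of 14 T and NK cell markers 13 were below the minimum and 8 stayed under 0.1 RPKM in all libraries. Their summed level of 10.6 to 12.2 RPKM in shCtrl and 6.83 to 8.53 in shCycD1 was mostly PRF1. Of 14 myeloid markers 10 were below the minimum, and the sums were 71.5 to 81.5 and 71.0 to 79.7 RPKM. Epithelial, fibroblast and kidney markers had 10 of 16 members below the minimum and sums of 22.1 to 27.7 and 24.9 to 31.2 RPKM.

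The silenced gene itself was lower in each shCycD1 library. CCND1 stood at 924, 1044 and 874 RPKM in shCtrl 1 to 3 and 213, 298 and 292 in shCycD1 1 to 3. The groups did not overlap (log2 change -1.83 ± 0.14, adjusted p = 0.000257), and the value was -1.08 with spike-in scaling. The lowest of the 3 silenced libraries was shCycD1 1. The other genes of this step moved in both directions. CCND2, the cyclin D2 gene, was read at 1.47, 1.25 and 1.27 RPKM in shCtrl and 6.31, 4.89 and 4.55 in shCycD1, which is a rise from a low level with no overlap (log2 change 1.64 ± 0.13, adjusted p = 0.000268). CCND3, the cyclin D3 gene, had 3.21, 3.42 and 3.04 RPKM in the control libraries and 2.53, 2.49 and 2.73 in the silenced ones and fell by 0.27 (adjusted p = 0.0431), a call that was lost without any shCtrl library, or without any shCycD1 library (-0.31 to -0.23). CDK4 fell by 0.40, from 554 to 620 RPKM in shCtrl to 424 to 472 in shCycD1. CDK6 was at -0.41 with overlapping groups and was not called, but was called without shCtrl 2 (-0.54). The 5 genes of D-type cyclins and their kinases had a median of -0.40, or 0.35 with spike-in scaling. CCND3, CDK4 and CDK6 stood at 0.37, 0.35 and 0.13 with spike-in scaling. In pooled RNA of a culture, fewer cells in a phase of the cycle and less RNA per cell cannot be told apart.

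The 6 tested CDK inhibitor genes had 1 higher and 4 lower (median -0.53, or 0.21 with spike-in scaling). CDKN1C, which encodes p57, was the 1 called higher, with 33, 36.3 and 26.2 RPKM in shCtrl 1 to 3 and 72.2, 65.3 and 71.7 in shCycD1 1 to 3 (log2 change 1.13 ± 0.12, adjusted p = 0.000756). CDKN1A, which encodes p21, fell by 0.52, and CDKN1B, the p27 gene, was at -0.0011 with overlapping groups. CDKN2C and CDKN2D, inhibitors of CDK4 and CDK6, fell by 0.55 and 1.06. CDKN3, a phosphatase gene listed with them, fell by 1.33. With spike-in scaling CDKN1A and CDKN2C stood at 0.23 and 0.20, and CDKN1C at 1.87. CDKN2A and CDKN2B, neighbouring genes of p16, ARF and p15, were below the minimum, with at most 0.0256 RPKM for CDKN2A and 0 for CDKN2B in every library.

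Downstream of RB, the transcription factor genes E2F1 and E2F8 were lower, while E2F3 and E2F7 were not called (-0.060 and -0.034, or 0.65 and 0.67 with spike-in scaling). E2F1 stood at 36.7, 40.8 and 35 RPKM in shCtrl and 11.8, 17 and 12.9 in shCycD1. E2F8, a repressor of the same family, had 43.5, 38.5 and 41.8 RPKM in the control libraries and 12.2, 16 and 12.8 in the silenced ones and fell by 1.57. For both genes the groups were separate. FOXM1 and MYBL2, activators of mitosis genes through the CHR, fell by 1.48 and 1.48, and RBL1, the p107 gene, by 1.17. In the list of RB family, E2F and DREAM genes, 10 of 20 tested members were lower and 2 higher, with a median of -0.25 (0.45 with spike-in scaling). The 2 higher were LIN37, a DREAM subunit (0.50), and TFDP2, a partner of E2F factors (0.34), the call being lost without shCtrl 1, or without shCycD1 3 (0.32 to 0.33). All but 1 of the 16 tested genes of cyclins E, A, B and F, CDK1, CDK2 and their regulators were lower (median -1.15, or -0.48 with spike-in scaling). CCNA2, the cyclin A2 gene, stood at 208, 205 and 226 RPKM in shCtrl 1 to 3 and 70.5, 80.0 and 80.5 in shCycD1 1 to 3, and CCNB1 and CDK1, which form the kinase of mitotic entry, fell by 1.38 and 1.38. PKMYT1, an inhibitory kinase of CDK1, fell by 1.42 and CCNF by 1.28. CCNE2, a cyclin of the G1/S step, fell by 0.85.

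**Figure D2:**
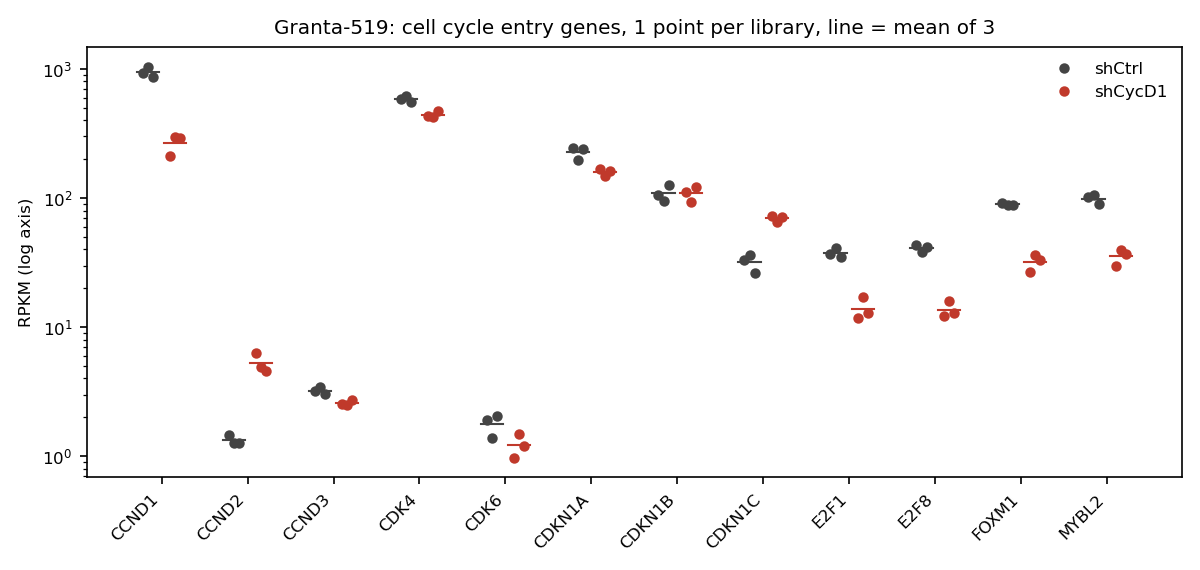
RPKM on a log axis for 12 genes of cell cycle entry, with 1 point for each Granta-519 library and a line at the mean of 3. The shCycD1 points of CCND1, E2F1, E2F8, FOXM1 and MYBL2 lie below all shCtrl points and those of CCND2 and CDKN1C above, while CDK6 and CDKN1B overlap. Levels are not comparable between genes.

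DNA replication genes were lower at nearly every step. Of 76 tested members 67 (88.2%) were lower and 1 higher, with a median of -1.10, or -0.38 with spike-in scaling, where 12 were called lower and 6 higher. Among 32 genes that load and start the replicative helicase 29 were lower. GINS2, a helicase subunit, stood at 52.3, 65.6 and 49.6 RPKM in shCtrl and 16.8, 19.8 and 18.4 in shCycD1 (log2 change -1.57 ± 0.12, adjusted p = 0.000249). ORC1, the largest origin recognition subunit, fell by 1.51. CDT1, which loads the MCM ring, had 69.1, 69 and 56.7 RPKM in the control libraries and 19.5, 27.6 and 23 in the silenced ones. MCM2, a subunit of that ring, fell by 1.42, MCM10 by 1.49 and CDC45 by 1.45. None of these genes had overlapping groups.

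Polymerases and the clamp followed, with 26 of 29 tested genes lower (median -1.04, or -0.34 with spike-in scaling). PCNA, the sliding clamp, was at 143, 159.6 and 133 RPKM in shCtrl 1 to 3 and 59.7, 65 and 64.2 in shCycD1 1 to 3 and fell by 1.20. KIAA0101, a PCNA-binding factor, fell by 1.44, the polymerase delta subunit POLD1 by 1.33, the polymerase epsilon subunit POLE2 by 0.92 and the nuclease-helicase DNA2 by 1.30. In nucleotide supply 12 of 15 were lower (median -0.87, or -0.14 with spike-in scaling). RRM2, the regulated subunit of ribonucleotide reductase, had 311, 336 and 305 RPKM in shCtrl and 105, 137 and 122 in shCycD1. TK1, thymidine kinase, fell by 1.57 and TYMS, thymidylate synthase, by 1.37. SAMHD1, which degrades deoxynucleotides, fell by 0.40 and stood at 0.28 with spike-in scaling. The call was lost without shCtrl 1, or without shCycD1 1 or 3 (-0.38 to -0.35). DCTD, dCMP deaminase, was the 1 member called higher (0.33).

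DNA repair genes leaned lower on the deposited scale. Of 86 tested genes 54 (62.8%) were lower and 2 higher, with a median of -0.49 that was 0.16 with spike-in scaling. Recombination and Fanconi anaemia genes made up 28 of these, from 38 tested (median -0.75, or -0.09 with spike-in scaling). BRCA1 stood at 8.89, 7.07 and 8.94 RPKM in the control libraries and 3.1, 4.45 and 3.28 in the silenced ones and fell by 1.11, FANCD2 by 1.03, RAD51AP1 by 1.29 and UBE2T, the ubiquitin carrier of the Fanconi pathway, by 1.47. Of the 16 checkpoint genes 9 were lower (median -0.41, or 0.33 with spike-in scaling). CHEK1 fell by 1.25 and TOPBP1 by 1.02, while the kinase ATM was at 0.32 with overlapping groups and no call. End joining had 4 of 9 genes lower (median -0.31, or 0.36 with spike-in scaling), led by C9orf142, the PAXX gene, at -1.19. XRCC6, which encodes Ku70, fell by 0.43, and NHEJ1 by 0.31, and these stood at 0.32 and 0.29 with spike-in scaling. In mismatch and base excision repair 13 of 23 were lower and 2 higher (median -0.34, or 0.26 with spike-in scaling). Uracil glycosylases went both ways: UNG stood at 65, 67.5 and 53.6 RPKM in shCtrl 1 to 3 and 20.7, 26.2 and 22.5 in shCycD1 1 to 3 and fell by 1.40, while SMUG1 rose by 0.32. The oxidised-base glycosylases NEIL3 and NEIL2 likewise differed, at -1.26 and 0.79. Leaving out 1 library ended the call of NHEJ1 without shCtrl 1 or 3, or without any shCycD1 library (-0.34 to -0.28), and the number of end joining genes called lower was 2 without shCtrl 1 or 3, or without shCycD1 1 or 3.

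Mitosis genes were lower in 101 of 114 tested members (88.6%) and higher in 2. Their median was -1.11, and -0.44 with spike-in scaling, where 23 were called lower and 7 higher. All 15 mitotic kinase and checkpoint genes were lower (median -1.34). PLK1, a kinase of mitotic entry and spindle assembly, stood at 125, 97.8 and 118 RPKM in shCtrl and 37.9, 40.5 and 40.6 in shCycD1 (log2 change -1.50 ± 0.10, adjusted p = 0.000191). NEK2 fell by 1.47, the histone H3 kinase GSG2 (haspin) by 1.41, AURKA by 1.22 and the checkpoint kinase BUB1 by 1.21. All 22 kinesin and cytokinesis genes were lower as well (median -1.27), in a range from -1.52 to -0.99. BIRC5, which encodes survivin, was at 128, 127 and 132 RPKM in the control libraries and 43, 44.7 and 46.1 in the silenced ones, the smallest adjusted p among the mitosis genes described here (log2 change -1.52 ± 0.06, adjusted p = 9.25e-05). Its partner CDCA8 fell by 1.45, and the motors KIF2C, KIF20A and KIF11 by 1.48, 1.39 and 1.27. ANLN, a scaffold of the cleavage furrow, fell by 1.31.

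At the chromosome itself 32 of 33 centromere and kinetochore genes were lower (median -1.08). CENPA, the centromeric histone H3, stood at 34.7, 35.5 and 39.1 RPKM in shCtrl 1 to 3 and 11.7, 11.3 and 14.5 in shCycD1 1 to 3. SPC25 and NDC80, partners in the microtubule-binding complex, fell by 1.53 and 1.17, and SKA3 by 1.48. Of 25 condensin, cohesin and topoisomerase genes 21 were lower (median -1.02). TOP2A, which untangles DNA, had 139, 121 and 157 RPKM in shCtrl and 42.1, 51.8 and 51.5 in shCycD1. CDCA5 (sororin), which protects cohesion, fell by 1.55, the cohesin acetyltransferase ESCO2 by 1.47 and the condensin subunit NCAPH by 1.45. The list of 19 anaphase-promoting complex genes and their carriers had 11 lower and 2 higher, with a median of -0.35, or 0.39 with spike-in scaling. CDC20, the mitotic activator, was at 324, 274 and 308 RPKM in the control libraries and 102, 105 and 106 in the silenced ones, UBE2C fell by 1.58 and the inhibitor FBXO5 by 0.95. The subunits ANAPC13 and CDC16 were called higher (0.56 and 0.25). Other subunits, ANAPC7, ANAPC11, CDC23 and CDC27, which were picked after their values were seen, were called lower (-0.37, -0.35, -0.45 and -0.46, or 0.36, 0.39, 0.28 and 0.26 with spike-in scaling), as was the activator FZR1 (-0.31, or 0.41). The calls were lost for CDC16 without shCtrl 1 or 3, or without any shCycD1 library (0.21 to 0.27), CDC27 without shCtrl 1, or without shCycD1 1 or 2 (-0.46 to -0.43) and FZR1 without shCtrl 1 or 3, or without any shCycD1 library (-0.34 to -0.26). MKI67, the gene of the proliferation marker Ki-67, showed more spread, at 176, 92 and 211 RPKM in shCtrl 1 to 3 and 46.7, 62.8 and 56 in shCycD1 1 to 3 (log2 change -1.45 ± 0.30, adjusted p = 0.00845). Its lowest control was shCtrl 2, which still lay above the 3 silenced libraries.

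**Figure D3:**
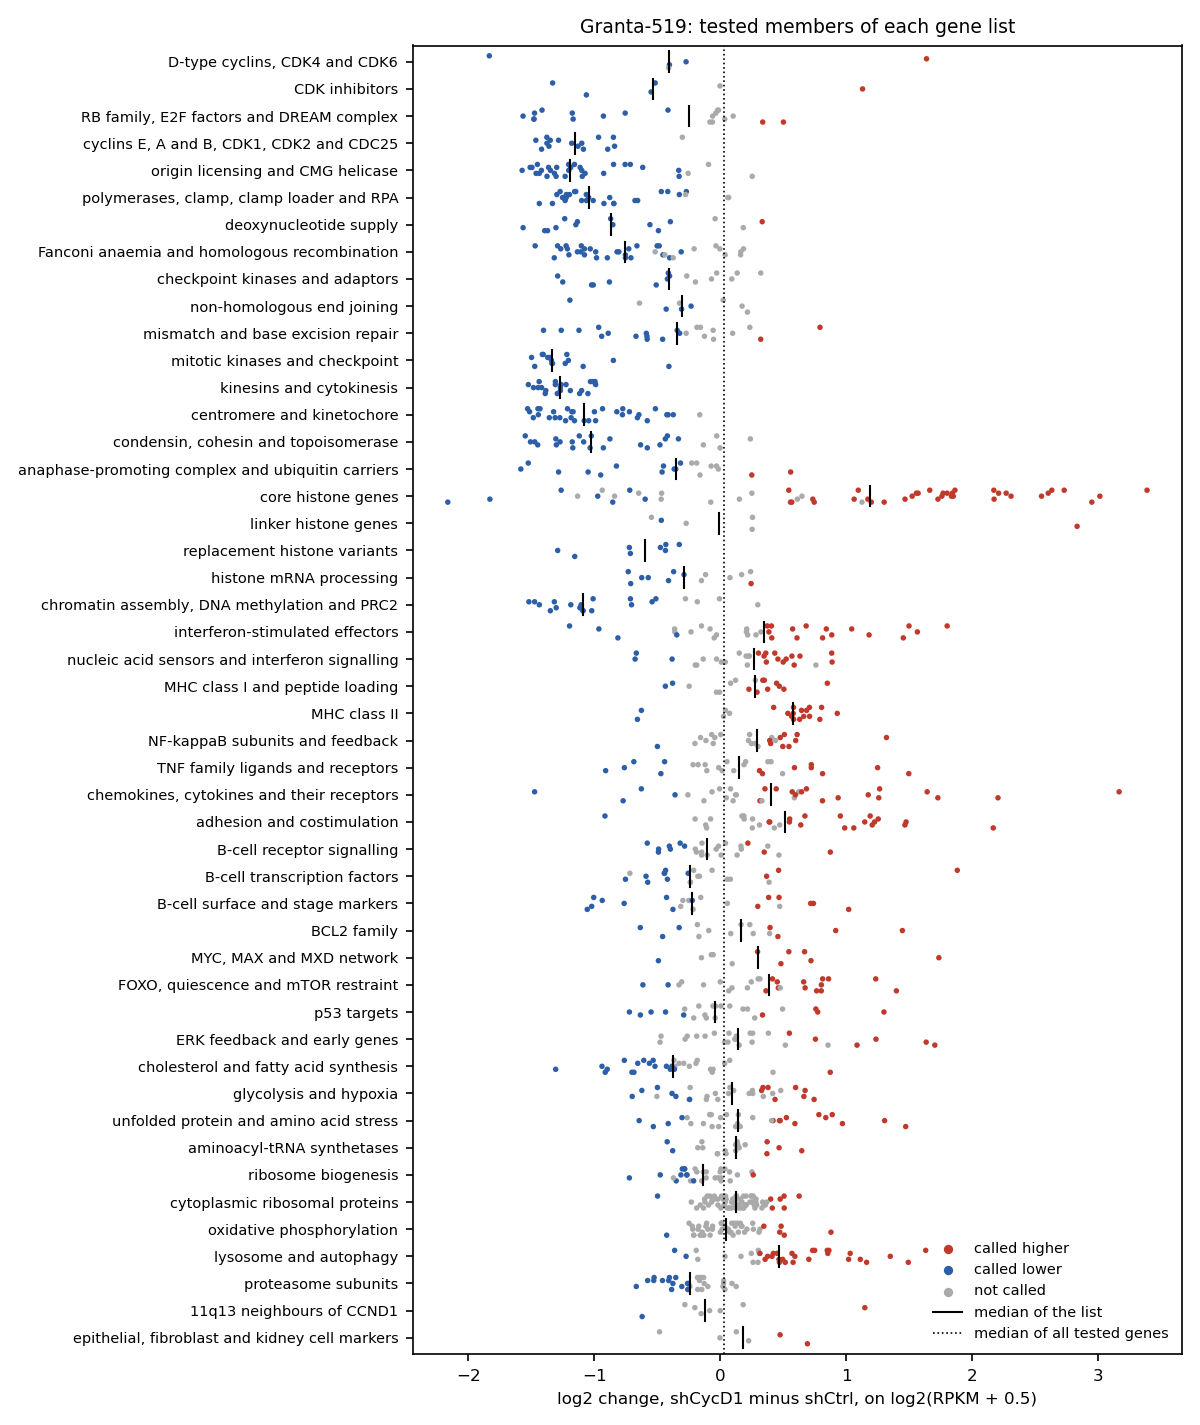
Log2 change of each tested member (points) of the gene lists with at least 5 tested members in Granta-519, with the median of the list (bar) and of all tested genes (dotted line, 0.03). The lists of helicase loading, polymerases, mitotic kinases, kinesins and centromeres lie almost wholly below the dotted line, and core histones spread from -2.16 to 3.39. With spike-in scaling all medians move up by about the shift of all genes, and 18 of the plotted lists, among them checkpoint, B-cell and proteasome genes, go from a median below 0 to one above 0.

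Core histone genes went against the replication genes. Of 54 tested members 35 (64.8%) were higher and 7 lower, with a median of 1.19 (1.91 with spike-in scaling). HIST1H2AC stood at 35.3, 21.7 and 18.4 RPKM in shCtrl and 265, 272 and 239 in shCycD1 (log2 change 3.39 ± 0.22, adjusted p = 0.000187), and shCtrl 1 was the highest of its controls. HIST1H4H had 21.8, 18.3 and 25 RPKM in the control libraries and 197, 179.9 and 158 in the silenced ones and HIST1H3H 6.72, 9.16 and 5.43 RPKM in shCtrl 1 to 3 and 56.2, 56.3 and 59.2 in shCycD1 1 to 3. All 3 were separate between the groups. HIST2H2BE rose by 2.64 and HIST1H2BD by 2.21. Other members went the opposite way. HIST1H3B was at 4.63, 5.8 and 8.41 RPKM in shCtrl and 0.481, 0.559 and 2.58 in shCycD1, HIST1H4B fell by 1.83 and HIST1H3F by 0.97. Their SEs were 0.45, 0.32 and 0.26, and the HIST1H3F call was lost without shCtrl 1 or 3, or without shCycD1 1 or 2 (-0.96 to -0.75). By type, 12 of 15 H2B and 10 of 15 H2A genes were higher, with medians of 1.76 and 1.30. Of H4 genes 8 of 12 were higher and 2 lower (median 0.65), and of H3 genes 5 of 12 were higher and 3 lower (median 0.86). The 11 tested genes of the HIST2 cluster had 8 higher and 0 lower, and the 41 of the HIST1 cluster 26 and 7. Histone genes are near copies, so reads may have been split between them, and most of these mRNAs end in a stem-loop while libraries were made with an mRNA kit. The part of either in these values was not tested.

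**Figure D4:**
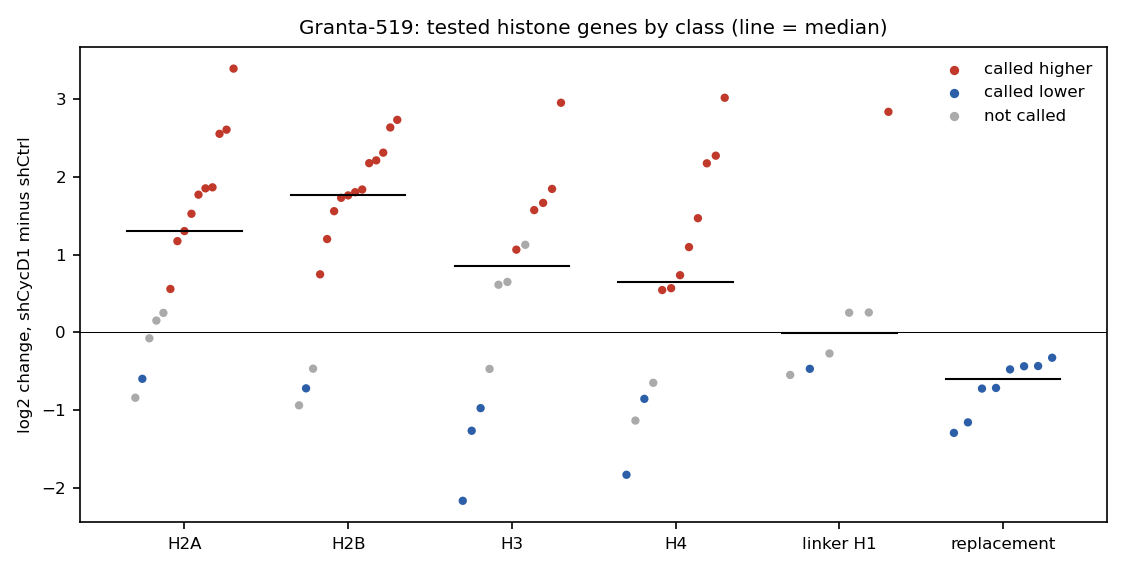
Log2 change (shCycD1 minus shCtrl) of each tested histone gene in Granta-519 by class, coloured by call, with a line at the median of the class. H2A and H2B members lie mostly above 0, H3 and H4 members on both sides, and all 8 replacement variants below 0. With spike-in scaling the median of the replacement variants is 0.15.

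HIST1H1C, a linker histone, stood at 199, 207 and 196 RPKM in the control libraries and 1511, 1301 and 1498 in the silenced ones (log2 change 2.84 ± 0.08, adjusted p = 6.08e-05), the 1 linker gene called higher of 6 tested. H1FX fell by 0.47 and stood at 0.28 with spike-in scaling, and H1F0 was at 0.26 with overlapping groups. The replacement variants, most of whose mRNAs carry poly(A) tails and are made outside S phase too, were all called lower (8 of 8, median -0.59, or 0.15 with spike-in scaling). H2AFZ stood at 1486, 1907 and 1673 RPKM in shCtrl 1 to 3 and 660.2, 732 and 887 in shCycD1 1 to 3, H2AFX fell by 1.29 and H3F3B by 0.47, the last standing at 0.28 with spike-in scaling. SLBP, which binds the histone stem-loop, fell by 0.71 (0.032 with spike-in scaling). In its list, histone mRNA processing, 7 of 13 were lower and 1 higher (median -0.29, or 0.46 with spike-in scaling). Chromatin assembly and DNA methylation genes were lower in 19 of 23 cases (median -1.09, or -0.36 with spike-in scaling). The histone chaperone ASF1B had 63.6, 69.1 and 59.7 RPKM in shCtrl and 20.6, 22.3 and 23.1 in shCycD1. UHRF1 and DNMT1, which copy DNA methylation, fell by 1.44 and 1.02, the methyltransferase EZH2 by 1.10 and HMGB2 by 1.47.

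Interferon-stimulated effectors leaned higher, with 16 of 32 tested genes higher (22.4% of all genes were) and 4 lower (median 0.35). MX1, an antiviral GTPase, stood at 0.617, 0.526 and 0.568 RPKM in the control libraries and 2.75, 3.61 and 3.4 in the silenced ones (log2 change 1.80 ± 0.11, adjusted p = 0.000186). OAS1, a sensor of double-stranded RNA, had 7.99, 5.71 and 6.95 RPKM in shCtrl 1 to 3 and 22.2, 19.3 and 22.3 in shCycD1 1 to 3 and GBP2, a guanylate-binding protein, 1.24, 1.49 and 1.15 RPKM in shCtrl and 4.88, 4.07 and 4.77 in shCycD1. The 3 genes were separate between groups. Other members did not pass the test or fell. ISG15 was at 202, 218 and 159 RPKM in the control libraries and 229, 232 and 259.5 in the silenced ones and IFIT3 at 74.9, 63.8 and 62 RPKM in shCtrl 1 to 3 and 80.5, 83.1 and 68.6 in shCycD1 1 to 3, neither called, though ISG15 was called higher without shCtrl 2 (0.42). IFITM2 went down, at 168, 209.5 and 163 RPKM in shCtrl and 86.1, 72 and 76 in shCycD1 (log2 change -1.20 ± 0.12, adjusted p = 0.000526), with IFITM1 at -0.81 and IFITM3 at -0.96. These membrane genes are close paralogs, so reads may be shared, and they stood at -0.45, -0.064 and -0.23 with spike-in scaling.

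Among sensors and signal carriers 13 of 28 were higher (46.4%, against 22.4% of all genes) and 3 lower (median 0.27). IRF9, the DNA-binding part of a factor on the ISRE, stood at 18.2, 14.6 and 19.5 RPKM in the control libraries and 33.1, 30.8 and 33.5 in the silenced ones. IFNGR1, a receptor chain for interferon gamma, rose by 0.89 and the RNA sensor regulator DHX58 by 0.63. IRF7 was at 0.23 without a call. The DNA sensors MB21D1 (cGAS) and TLR9 were lower (-0.68 and -0.67), as was IRF8 (-0.38). With spike-in scaling TLR9 and IRF8 stood at 0.077 and 0.36. The IRF8 call was lost without shCtrl 1 or 3, or without shCycD1 1 or 3 (-0.39 to -0.31), IRF7 was called higher without shCtrl 2 (0.29), and the number of genes called higher was 8 without shCycD1 1.

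MHC class II genes, which present peptides to CD4 T cells, were higher in 15 of 20 cases (median 0.58). CD74, the invariant chain, stood at 1932, 1976 and 1864 RPKM in shCtrl 1 to 3 and 3183, 2695 and 2787 in shCycD1 1 to 3, and HLA-DRA at 3306, 3545 and 3392 RPKM in shCtrl and 5436, 4622 and 5156 in shCycD1. CTSS, the protease that trims the invariant chain, had 31.2, 31.3 and 32.9 RPKM in the control libraries and 64, 58.1 and 61.1 in the silenced ones (log2 change 0.93 ± 0.07, adjusted p = 0.000219). CIITA, the master activator of this set, was not called (0.043, overlapping groups). HLA-DOB and RFXAP were the 2 lower members (-0.63 and -0.66, or 0.12 and 0.024 with spike-in scaling). HLA-DOA and HLA-DQA1 rose by 0.81 and 0.79. Of 17 MHC class I genes 9 were higher and 2 lower (median 0.28). HLA-E stood at 721, 752 and 769 RPKM in shCtrl 1 to 3 and 1402, 1307 and 1338 in shCycD1 1 to 3, and TAP1 rose by 0.23. B2M was at 0.28 with an adjusted p of 0.053. The immunoproteasome subunits PSMB8 and PSMB9 were lower (-0.38 and -0.44, or 0.37 and 0.31 with spike-in scaling). A fit of 5 libraries ended the calls of TAP1 without shCtrl 1, or without any shCycD1 library (0.19 to 0.24) and PSMB8 without shCycD1 1 or 2 (-0.37 to -0.35), and B2M was called higher without shCtrl 2 (0.34). The symbols on several rows, 22 of the 97 tested interferon and antigen genes, were read from the row with the highest mean, and without them 35 rather than 53 genes of the theme were higher.

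NF-kappaB is a transcription factor family with a known role in mantle cell lymphoma. Of 24 subunits and feedback genes 9 were higher (37.5%, against 22.4% of all genes) and 1 lower (median 0.29). TRAF1, a signalling adaptor, stood at 36.7, 27.2 and 30.8 RPKM in shCtrl and 80.1, 84.3 and 73.3 in shCycD1 (log2 change 1.32 ± 0.12, adjusted p = 0.000397). TNIP1 and NFKB2 rose by 0.61 and 0.48, and BIRC3 by 0.60. The feedback genes NFKBIA and TNFAIP3 were at 0.44 and 0.30 and were not called (adjusted p = 0.056 and 0.0609). CHUK, the kinase IKK alpha, fell by 0.50 (0.21 with spike-in scaling). Leaving out 1 library ended the calls of BIRC3 without shCycD1 1 or 2 (0.53 to 0.59) and CHUK without shCtrl 1, or without shCycD1 1 (-0.47 to -0.45), and NFKBIA was called higher without shCtrl 2, or without shCycD1 3 (0.54 to 0.58). In the TNF family 8 of 26 were higher (30.8%) and 5 lower (19.2%), with a median of 0.15. The lower share was near that of all tested genes (22.4% higher and 18.2% lower). TNFRSF14 had 38.7, 37.9 and 38.5 RPKM in the control libraries and 90.2, 91.6 and 94.4 in the silenced ones, CD40 rose by 0.72 and TNFSF4 by 0.81. TNFRSF9 rose by 1.50 from under 1 RPKM. TNF itself fell by 0.76, TNFRSF4 by 0.91 and TNFRSF13B, the TACI gene, by 0.69 (0.0058 with spike-in scaling). CD70 and the BAFF receptor TNFRSF13C had overlapping groups and no call.

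Receptors that place B cells in lymph nodes changed in both directions. CCR7, which responds to CCL19 and guides cells into T-cell zones, stood at 205, 155 and 181 RPKM in shCtrl 1 to 3 and 677, 614 and 509 in shCycD1 1 to 3 (log2 change 1.73 ± 0.14, adjusted p = 0.000279). CXCR5, the receptor for follicles, had 1.19, 0.839 and 0.896 RPKM in shCtrl and 8.25, 7.11 and 4.18 in shCycD1, and CCL19 1.16, 1.07 and 0.41 RPKM in the control libraries and 13, 10.7 and 11 in the silenced ones. These 3 rose without overlap, the last 2 from about 1 RPKM. Reads of CCL19 recovered from these values were few in shCtrl, at 9.9, 7.9 and 3.0, against 96.6, 68.0 and 75.9 in shCycD1. S1PR4, a receptor for sphingosine-1-phosphate, went the other way, with 121, 108 and 95.3 RPKM in shCtrl 1 to 3 and 35, 39.9 and 40.7 in shCycD1 1 to 3. S1PR2 fell by 0.63 (0.11 with spike-in scaling) and the chemokine CCL4 by 0.77. CXCR4 and IL10 were not called (0.13 and 0.12). In this list 16 of 32 tested genes were higher and 4 lower (median 0.40).

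Adhesion and costimulation genes were higher in 17 of 30 cases, with 1 lower (median 0.51). VCAM1 stood at 1.28, 1.02 and 0.902 RPKM in shCtrl and 7.71, 5.98 and 6.01 in shCycD1, ICAM1 at 128, 127 and 119 RPKM in the control libraries and 316, 279 and 264 in the silenced ones and CD44 at 9.29, 8.16 and 10.3 RPKM in shCtrl 1 to 3 and 23.4, 21.4 and 21.8 in shCycD1 1 to 3. All 3 were separate, at log2 changes of 2.17, 1.19 and 1.23. CD83 and SLAMF7, surface molecules of activated cells, rose by 1.48 and 1.47. ITGB2, the beta chain of leukocyte integrins, was the 1 lower gene, at 2.44, 2.74 and 2.16 RPKM in shCtrl and 1.02, 1.24 and 0.925 in shCycD1.

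The B-cell programme leaned lower on the deposited scale, with 23 of 67 tested genes lower (34.3%, against 18.2% of all genes) and 12 higher. Its median of -0.18 was 0.54 with spike-in scaling, where 0 were called lower. TCL1A, an AKT co-activator of early B cells, stood at 133, 189.8 and 128 RPKM in the control libraries and 63.4, 82 and 68.7 in the silenced ones, and SDC1, the plasma cell marker CD138, at 45.6, 46.3 and 45.3 RPKM in shCtrl 1 to 3 and 19.7, 26.3 and 21.4 in shCycD1 1 to 3. VPREB3, of the surrogate light chain family, had 79.5, 83.5 and 80.9 RPKM in shCycD1 and 164.2 ± 17.7 (SD, n = 3) in shCtrl. The 3 genes did not overlap between groups and stayed below 0 with spike-in scaling (-0.31, -0.28 and -0.26). SYK, a kinase of the B-cell receptor, fell by 0.49 and CD72, an inhibitory receptor, by 0.58, while BTK was at -0.032. ETS1, POU2AF1 and MEF2B, transcription factors of the lineage, fell by 0.75, 0.59 and 0.58. SOX11, a factor of mantle cell lymphoma, fell by 0.43. With spike-in scaling SYK, CD72, POU2AF1, MEF2B and SOX11 stood above 0, at 0.24, 0.15, 0.16, 0.15 and 0.31. PAX5 was at -0.72 with overlapping groups (adjusted p = 0.0604), and IRF4 and PRDM1 at 0.056 and -0.24 without a call. BCL6 was below the minimum. A fit of 5 libraries ended the calls of SOX11 without shCtrl 1 or 3, or without shCycD1 1 or 2 (-0.47 to -0.33) and CD72 without shCtrl 2 or 3, or without shCycD1 1 or 3 (-0.63 to -0.44), while PAX5 was called lower without shCtrl 2, or without shCycD1 2 (-0.96 to -0.92) and PRDM1 without shCtrl 2 (-0.36). The number of B-cell transcription factors called lower, 8 of 21, was 5 without shCtrl 1, or without shCycD1 1.

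Some B-cell genes rose. FCER2, which encodes CD23, stood at 129, 144 and 119 RPKM in shCtrl and 220.2, 206 and 218 in shCycD1 (log2 change 0.72 ± 0.09, adjusted p = 0.00104). CD200 rose by 0.74, FCRL4 by 1.02 and MEF2C by 0.46. LYN, a SRC family kinase, rose by 0.22, CD81 by 0.35 and the transcription factor EBF1 by 0.37. Leaving out 1 library ended the calls of LYN without any shCtrl library, or without any shCycD1 library (0.18 to 0.26) and EBF1 without shCtrl 1, or without shCycD1 1 or 3 (0.35 to 0.37).

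A pair of short-RNA genes known from activated B cells were among the largest rises. Their mature products are shown with the seed, bases 2 to 8, in capitals. They come from RefSeq on GRCh38.p14, at chr5:160485372-160485393 and chr21:25573983-25574006, both on the plus strand.
hsa-miR-146a-5p: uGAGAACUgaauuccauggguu
hsa-miR-155-5p: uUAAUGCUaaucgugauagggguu
The seeds differ. MIR146A stood at 8.03, 20.7 and 7.08 RPKM in the control libraries and 168, 187 and 221 in the silenced ones (log2 change 4.10 ± 0.37, adjusted p = 0.000407). Reads recovered from these values were few in shCtrl, at 4.0, 8.9 and 3.0, against 72.0, 69.1 and 88.8 in shCycD1. MIR155 had 361, 389 and 381 RPKM in shCtrl 1 to 3 and 1384, 1279 and 1490.5 in shCycD1 1 to 3 and its host transcript MIR155HG 19.1, 23 and 26.7 RPKM in shCtrl and 86.9, 75.9 and 97.2 in shCycD1, with log2 changes of 1.87 and 1.90. Both genes were separate between groups, and shCtrl 2 was the highest MIR146A control. These are reads of longer RNA over the hairpins in mRNA libraries, and mature microRNA was not measured. MIR146A lies within MIR3142HG in the RefSeq table. MIR4800, which lies within MXD4, rose by 1.78 beside 1.74 for MXD4, and MIR4707, within HAUS4, fell by 1.68. Recovered reads of MIR4800 were 22.7, 17.8 and 17.8 in shCtrl and 55.2, 71.0 and 54.2 in shCycD1. Those of MIR4707 were 24.7, 29.6 and 29.6 in shCtrl and 5.9, 12.8 and 5.9 in shCycD1. Reads of a hairpin and of its host cannot be told apart here.

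MYC, a driver of growth, was not called. It stood at 101, 75.1 and 95.1 RPKM in the control libraries and 88.7, 109 and 90.7 in the silenced ones, and its groups overlapped (log2 change 0.096 ± 0.13, adjusted p = 0.603). MXD4, a repressor that competes with MYC for MAX, had 15.5, 12.5 and 11.4 RPKM in shCtrl 1 to 3 and 46.3, 47.2 and 40.6 in shCycD1 1 to 3 (log2 change 1.74 ± 0.13, adjusted p = 0.000218), and MXI1 of the same family rose by 0.72. MYCL1, a relative of MYC, rose by 0.67. In this network 6 of 11 tested genes were higher and 1 lower, MLXIP at -0.49 (0.087 with spike-in scaling). Of 26 FOXO, quiescence and mTOR restraint genes 13 were higher and 2 lower (median 0.39). PIK3IP1, an inhibitor of PI3 kinase, stood at 6.72, 5.67 and 7.66 RPKM in shCtrl and 18.5, 19.3 and 17.3 in shCycD1 and YPEL5 at 25.4, 28.7 and 26.6 RPKM in the control libraries and 63.3, 66.1 and 62.6 in the silenced ones, and the repressor HBP1 rose by 0.86. TXNIP and CCNG1 fell by 0.41 and 0.61 (0.34 and 0.13 with spike-in scaling). FOXO1, CCNG2 and SESN1 were not called. FOXO3 was below the minimum and not tested, at 0.498 to 0.609 RPKM in shCtrl and 0.896 to 1.15 in shCycD1, without overlap. Reads recovered from these values were 269.6 to 340.8 and 453.7 to 537.7, so a low RPKM over its span does not mean few reads. The MLXIP call was lost without shCtrl 1 or 3, or without shCycD1 1 or 3 (-0.49 to -0.39), and the number of MYC network genes called higher was 3 without shCtrl 1, or without shCycD1 1.

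The BCL2 family governs apoptosis, and 4 of its 15 tested members were higher (26.7%) and 3 lower, near the shares of all tested genes (22.4% and 18.2%). BMF, a pro-apoptotic BH3-only member, stood at 31.1, 22.9 and 26.6 RPKM in shCtrl 1 to 3 and 75.5, 76.8 and 68.8 in shCycD1 1 to 3 (log2 change 1.45 ± 0.12, adjusted p = 0.000282). The protective members BCL2 and BCL2L10 rose by 0.46 and 0.92, while MCL1 was at 0.26 without a call. BIK, PMAIP1 (NOXA) and BAK1, all pro-apoptotic, fell by 0.63, 0.46 and 0.33 and stood at 0.095, 0.29 and 0.41 with spike-in scaling. BCL2L11 (BIM) was at 0.39 without a call. A fit of 5 libraries ended the calls of BIK without shCycD1 1 (-0.60) and BAK1 without shCtrl 1 or 3, or without shCycD1 1 or 2 (-0.32 to -0.27), and MCL1 was called higher without shCtrl 3 (0.35). Of 23 p53 targets 4 were higher (17.4%) and 5 lower (21.7%), also near the background (median -0.04, or 0.69 with spike-in scaling). GADD45G, GADD45B and ZMAT3 rose by 1.30, 0.76 and 0.78. PLK3, POLH and DDB2 fell by 0.72, 0.63 and 0.55 and stood at 0.0024, 0.089 and 0.19 with spike-in scaling. Among early and ERK feedback genes 6 of 26 were higher (23.1%, near the 22.4% of all genes) and 0 lower. JUN stood at 17.4, 16.2 and 17.8 RPKM in shCtrl and 35.9, 39.9 and 35.2 in shCycD1. DUSP4, NR4A2 and SPRY1 rose by 1.71, 1.64 and 1.24 with 1 high library, shCycD1 2, as in NR4A2 at 4.36, 4.51 and 2.99 RPKM in the control libraries and 10.9, 28.1 and 7.38 in the silenced ones. EGR1 was not called, but was called lower without shCtrl 2 (-0.68), and the NR4A2 call was lost without shCtrl 1 or 3, or without shCycD1 1 (1.47 to 1.77).

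Metabolic groups moved little as a whole, with 62 of 331 tested genes higher (18.7%) and 57 lower (17.2%), close to the background of 22.4% and 18.2%. In the lysosome and autophagy list the shares were further from it, with 26 of 37 higher (70.3%) and 2 lower (median 0.47). LAMP3 stood at 24.5, 21.1 and 25.6 RPKM in shCtrl 1 to 3 and 80.0, 73 and 70.8 in shCycD1 1 to 3, CTSA, a lysosomal carboxypeptidase, at 32.7, 29.2 and 31.2 RPKM in shCtrl and 88.6, 72.4 and 79.2 in shCycD1 and GABARAPL1, an autophagosome protein, at 2.56, 2.61 and 3.24 RPKM in the control libraries and 9.65, 7.97 and 8.78 in the silenced ones. They rose by 1.63, 1.35 and 1.50. SQSTM1, the autophagy receptor p62, rose by 0.45 and TFEB, a transcription factor of lysosomal genes, by 0.36. LAMP1 was not called, and GUSB and GLA fell by 0.36 and 0.27 (0.35 and 0.46 with spike-in scaling). The GLA call was lost without shCtrl 1, or without any shCycD1 library (-0.30 to -0.23).

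Cholesterol and fatty acid genes were lower in 16 of 30 cases (53.3%, against 18.2% of all genes), with a median of -0.38. It was 0.36 with spike-in scaling. FADS1, a fatty acid desaturase, stood at 38.8, 48.4 and 58 RPKM in shCtrl 1 to 3 and 18.1, 21.6 and 17.7 in shCycD1 1 to 3 (log2 change -1.31 ± 0.15, adjusted p = 0.00099). FADS2 fell by 0.91 and SREBF1, a transcription factor of lipid synthesis, by 0.94, and these stayed below 0 with spike-in scaling. FASN was not called (-0.37), but was called lower without shCtrl 2, or without shCycD1 2 (-0.49 to -0.48), and TM7SF2 was the 1 higher member (0.87). Unfolded protein and amino acid stress genes had 11 of 30 higher (36.7%, against 22.4% of all genes) and 4 lower (13.3%, against 18.2%). CHAC1, a target of ATF4, stood at 11.5, 10.2 and 10.7 RPKM in shCtrl and 31.9, 29.5 and 31.1 in shCycD1, DNAJB9, an ER chaperone partner, at 42.8, 46 and 52 RPKM in the control libraries and 127, 108 and 115 in the silenced ones, and PPP1R15A rose by 0.97. ATF4, DDIT3 and HSPA5 rose by 0.53, 0.84 and 0.47. The serine synthesis genes PHGDH and PSAT1 were lower (-0.64 and -0.53), as was SHMT2 (-0.41), and ASNS was not called. PSAT1 and SHMT2 stood at 0.14 and 0.34 with spike-in scaling. The ATF4 call was lost without shCtrl 1, or without shCycD1 1 (0.45 to 0.48), and the number of cholesterol and fatty acid genes called lower was 8 without shCycD1 1.

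Glycolysis and hypoxia genes were mixed, with 8 of 30 higher and 6 lower. LDHA fell by 0.70 and GPI by 0.50 (0.052 and 0.25 with spike-in scaling), while BNIP3L, PFKFB3 and P4HA1 rose by 0.75, 0.67 and 0.68. Leaving out 1 library ended the calls of GPI without shCtrl 1 or 2, or without shCycD1 2 or 3 (-0.52 to -0.41), BNIP3L without shCtrl 1 or 3, or without shCycD1 1 or 2 (0.56 to 0.74) and P4HA1 without shCtrl 1 or 3, or without shCycD1 1 or 2 (0.51 to 0.68), and the number of these genes called higher was 2 to 4 without shCtrl 1 or 3, or without shCycD1 1 or 2. Proteasome subunits had 15 of 31 lower (48.4%) and 0 higher, with a median of -0.24, or 0.51 with spike-in scaling. PSMB2 stood at -0.67, PSMC3 at -0.58 and PSMD3 at -0.53. Those 3 stood at 0.075, 0.17 and 0.22 with spike-in scaling. Ribosome biogenesis had 10 of 30 lower (33.3%) and 1 higher (3.3%), with a median of -0.14, or 0.61 with spike-in scaling. FBL, a methyltransferase of ribosomal RNA, was at -0.72. The number of proteasome genes called lower was 9 without shCycD1 2, and of ribosome biogenesis genes 4 to 5 without shCtrl 1, or without shCycD1 1 or 2. Of 75 ribosomal protein genes 6 were higher (8.0%) and 1 lower (1.3%). Without shCtrl 2, 27 were higher (2 to 3 without shCtrl 1 or 3 or shCycD1 1 or 3). RPL13A stood at 1156, 1438 and 1196 RPKM in shCtrl 1 to 3 and 1976, 1808 and 2055 in shCycD1 1 to 3. Oxidative phosphorylation had 5 of 48 higher (10.4%) and 1 lower (2.1%), with COX7C at 0.88, and 8 higher without shCtrl 2. Aminoacyl-tRNA synthetases had 4 of 20 higher and 2 lower, with WARS at 0.65, and the number higher was 1 to 2 without shCtrl 1, or without shCycD1 1 or 3.

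Outside the lists, NEUROD2 and SOCS2 were among the largest rises. NEUROD2, a transcription factor known from neurons, stood at 0.43, 0.384 and 0 RPKM in shCtrl and 8.26, 9.27 and 7.62 in shCycD1. Its recovered reads were few in shCtrl, at 8.9, 6.9 and 0, against 148.8, 144.0 and 128.2 in shCycD1. SOCS2, an inhibitor of cytokine signalling, had 7.46, 8 and 7.28 RPKM in the control libraries and 38.3, 31.1 and 34.9 in the silenced ones (log2 change 2.12 ± 0.10, adjusted p = 0.000105). S100A1, a calcium-binding protein, was at 7.64, 9.77 and 9.81 RPKM in shCtrl 1 to 3 and 41.4, 39.4 and 45.3 in shCycD1 1 to 3. SYNPO and ABHD4 rose by 1.97 and 1.94, OLR1 by 1.95 and GPR55 by 2.02. The largest falls outside the lists were close to those of the mitosis genes. ITPRIPL1 stood at 60.1, 44.3 and 66.6 RPKM in shCtrl and 13.6, 20.6 and 18.6 in shCycD1, MLLT11 at 48.6, 48.2 and 56 RPKM in the control libraries and 16.6, 16.9 and 18.2 in the silenced ones and TMSB15A at 7.07, 10.1 and 9.29 RPKM in shCtrl 1 to 3 and 1.84, 2.82 and 3.23 in shCycD1 1 to 3. KIAA0754 fell by 1.64 with an SE of 0.46, and the call was lost without shCtrl 1 or 3, or without shCycD1 1 or 3 (-1.56 to -1.36). KIF4B fell by 1.52, but it is a near copy of KIF4A and reads may be shared. TCF19 fell by 1.48 and FAM83D fell by 1.44. On 11q13, the chromosome band that holds CCND1, 1 of 8 tested neighbours was higher and 1 lower (2 lower without shCtrl 2). Their median was -0.12, or 0.52 with spike-in scaling. CTTN, which encodes cortactin, stood at 7.17, 6.63 and 7.12 RPKM in shCtrl and 16.4, 16.4 and 15.5 in shCycD1 and MYEOV fell by 0.62. ORAOV1, next to CCND1, was not called (0.18), and FGF19 was below the minimum.

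**Figure D5:**
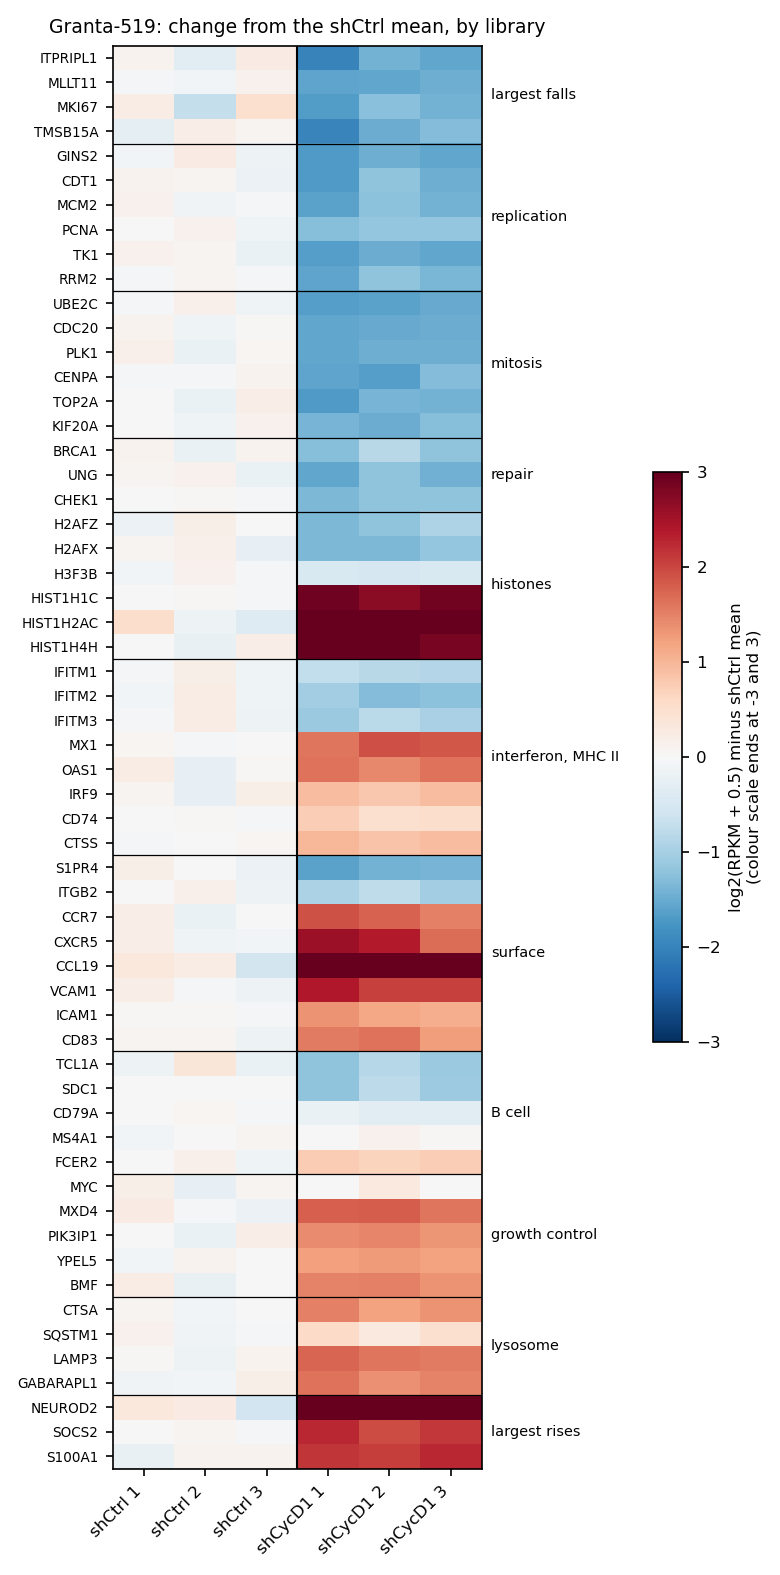
Change of log2(RPKM + 0.5) from the mean of the shCtrl libraries for named genes (rows) in each Granta-519 library (columns), with red above and blue below and a colour scale ending at -3 and 3. The 3 shCycD1 libraries have the same sign in all 58 rows but that of MYC, with MS4A1 near 0. Rows other than MYC and MS4A1 are genes whose groups did not overlap. That choice fixes a shared sign, so the agreement measures no reproducibility. With spike-in scaling the median of all genes moves to 0.72, and H3F3B and CD79A then stand above 0.

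The same contrast was set beside that of JeKo-1. CCND1 itself was lowered more in JeKo-1, at -2.38 against -1.83 in Granta-519 (difference 0.55 ± 0.18, adjusted p = 0.0306 in the joint limma fit). The part of this in the other differences was not tested. In a joint fit of the 12 libraries over 10653 genes that passed the minimum in both lines, the Granta-519 change was above the JeKo-1 change for 2053 genes (19.3%) and below it for 2410 (22.6%). The log base of the JeKo-1 values is not settled, so the sizes of these differences are less certain than their signs. JeKo-1 values read as log2 gave 1601 genes above and 1812 below, of 10131. Of the genes named here and called in opposite directions in the lines, 9 are given, taken for the size of the difference. That choice was capped, so 9 is no count of all such genes. S1PR2, CD79A, MLXIP and SYK, all lower in Granta-519, lie outside it. They stood above 0 in JeKo-1 (0.45, 0.61, 0.61 and 0.31), and the difference was called for each. HIST1H1C and SOCS2 were higher in Granta-519 and lower in JeKo-1 (-0.80 and -0.83). IFITM1, IFITM2 and IFITM3 were lower in Granta-519 and higher in JeKo-1 (1.15, 0.67 and 0.86), as were BIK (2.04), ITGB2 (1.15), HLA-DOB (1.43) and CD72 (0.88).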

How the data were processed

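The study sequenced RNA of Granta-519 and of JeKo-1, with 3 libraries in each of 4 groups. Per the labels' protocols, RNA came from an RNeasy kit and was made into libraries by a stranded mRNA kit. The authors deposited 1 table of gene values for each line. Tools named in the submitters' processing notes are FastQC, TopHat2 2.1.1 and limma 3.9, with the builds GRCh37 and hg19. The read counter and annotation: not given in the sources used here.

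As deposited, values were taken to be ln(RPKM + 1), a natural log. In Granta-519, low values of genes spanning under 5000 bases were whole multiples of a step, within a tolerance of 0.1, in 79.3 to 82.9% of cases with the natural log, 52.2 to 56.0% with base 2 and 44.8 to 54.3% with base 10 (20% by chance), when multiplied by the genomic span. The steps summed to 28311861 to 38249249 reads per library, but a literal per-million scale would give 3739055 to 4971452, so the depth is uncertain. The base of the JeKo-1 values is not settled (at most 30.8% whole).

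Of 25368 Granta-519 rows, 92 spike-in rows were left out, and the row with the highest mean was kept for each of 23617 symbols (554 stand on several rows). Log2(RPKM + 0.5) was fitted in R 4.3.3 by limma 3.58.1, using its trended empirical Bayes, and the script was tested on simulated data. Spike-in scaling used the 49 spike-ins that could be measured. The gene lists, members and tests were chosen with earlier results of these data known. The text names the key genes of each list, up to 3 called members with the largest change in each direction and no overlap between groups, up to 15 rises and 15 falls outside the lists at a mean RPKM of 1 or more, up to 5 short RNA genes, up to 10 genes called in opposite directions in the lines, and CD79B as a marker. A few genes that met these rules are not reported here. Alternatives were other pseudocounts, filters, scalings, weights, no trend, a replicate block, no symbols on several rows and leaving out each library. Symbols were matched to RefSeq promoters and microRNAs of GRCh38.p14, with a promoter for 74.5% of tested genes.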

Additional observations from a re-analysis of the deposited data

Results flagged for a closer look

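These 9 named genes were called in both lines in opposite directions and were taken for the largest differences among such genes. The difference is the Granta-519 change minus the JeKo-1 change (log2, joint limma fit of 12 libraries), and it was called for each. HIST1H1C, the linker histone, differed by 3.64 ± 0.12 (SE, adjusted p = 3.63e-08). SOCS2, the cytokine signalling inhibitor, differed by 2.95 ± 0.17 (adjusted p = 5.19e-07). BIK, the pro-apoptotic BCL2 relative, had a difference of -2.68 ± 0.21 (adjusted p = 3.28e-06) and the integrin chain ITGB2 one of -2.06 ± 0.18 (adjusted p = 6.07e-06). HLA-DOB, a regulator of MHC class II peptide loading, stood at -2.06 ± 0.12 (adjusted p = 6.14e-07). The interferon-induced membrane genes followed, IFITM1 at -1.96 ± 0.16 (adjusted p = 4.55e-06), IFITM2 at -1.86 ± 0.18 (adjusted p = 1.43e-05) and IFITM3 at -1.82 ± 0.18 (adjusted p = 1.69e-05). CD72 differed by -1.46 ± 0.24 (adjusted p = 0.000625). With spike-in scaling the calls of the difference were lost for IFITM2 (-0.99, adjusted p = 0.0514), IFITM3 (-0.97, adjusted p = 0.0556) and CD72 (-0.60, adjusted p = 0.231). In Granta-519 alone, that scaling left HIST1H1C and SOCS2 called higher, but none of the falls was still called. ITGB2, IFITM1, IFITM2 and IFITM3 stood at -0.35, -0.064, -0.45 and -0.23, and BIK, HLA-DOB and CD72 above 0 at 0.095, 0.12 and 0.15. With the JeKo-1 values read as log2, the call of the difference was kept for 8. Leaving out any 1 of the 12 libraries ended none of the 9 calls of the difference in the limma fit.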

How the results depend on the processing

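The 2840 higher and 2303 lower genes were recomputed under each alternative. Pseudocounts of 0.1 and 1 gave 2815 and 2845 higher and 2299 and 2304 lower, no trend 2834 and 2293, no filter 3419 and 2172, a mean RPKM of 5 or more 1954 and 1707, and quantile normalization 2746 and 2636. Library weights gave 4035 and 3579, giving shCtrl 1 a weight of 7.05 and shCtrl 2 one of 0.262. Spike-in scaling gave 7362 and 161, and 8048 and 593 when limited to the 5 libraries other than shCtrl 2, an alternative chosen after seeing the data. With it the calls were fewer among cell cycle entry genes (10 lower of 32), replication (12 of 67), repair (4 of 54), mitosis (23 of 101), histones and chromatin (7 of 42) and the B-cell programme (0 of 23). They were more among NF-kappaB and surface genes (85 higher for 50), survival and growth control (73 for 33) and metabolism (232 for 62). Limited to 5 libraries it gave 31 lower repair, 22 histone and chromatin and 4 B-cell genes, and 80 higher interferon and antigen, 89 NF-kappaB and surface, 76 survival and 244 metabolism genes. Weights gave 36 lower B-cell and 132 higher metabolism genes, and without symbols on several rows 35 interferon and antigen genes were higher, because fewer are tested. For the difference of the lines, spike-in scaling gave 3872 above and 143 below, in place of 2053 and 2410. Leaving out 1 library gave 1907 to 2707 higher and 1607 to 2509 lower genes. CCND1 ranged from -1.92 to -1.68, entry genes called lower from 31 to 32, replication 64 to 67, repair 45 to 58, mitosis 96 to 101, histones and chromatin 35 to 41 and B cell 16 to 25. Higher interferon and antigen genes ranged from 44 to 54, NF-kappaB and surface 42 to 55, survival 26 to 33 and metabolism 44 to 83. The difference of the lines ranged from 1724 to 2061 above and 2001 to 2600 below. Without shCtrl 2, 2489 of the genes called higher and 2072 of those called lower kept their calls.

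The replicate numbers were not used as pairs in the main fit. Deviations of same-numbered libraries from their group means correlated at 0.006, -0.124 and 0.033, and those of differently numbered ones at -0.12 to 0.108. Deviations within a group of 3 are tied to each other, so these values cannot decide whether the libraries were paired. With the replicate block 2285 genes were higher and 1903 lower, and CCND1 stayed at -1.83.

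With spike-in scaling the sign turned, always from below to above 0, for 54 named genes that were called under at least 1 of the scalings: ANAPC11 0.39, ANAPC7 0.36, BAK1 0.41, BIK 0.095, BTK 0.70, CCND3 0.37, CCNG1 0.13, CD70 0.64, CD72 0.15, CD79A 0.47, CD79B 0.35, CDC23 0.28, CDC27 0.26, CDK4 0.35, CDKN1A 0.23, CDKN1B 0.75, CDKN2C 0.20, CHUK 0.21, DDB2 0.19, FBL 0.026, FZR1 0.41, GLA 0.46, GPI 0.25, GUSB 0.35, H1FX 0.28, H3F3B 0.28, HLA-DOB 0.12, IRF8 0.36, LDHA 0.052, MEF2B 0.15, MLXIP 0.087, NHEJ1 0.29, PLK3 0.0024, PMAIP1 0.29, POLH 0.089, POU2AF1 0.16, PRF1 0.13, PSAT1 0.14, PSMB2 0.075, PSMB8 0.37, PSMB9 0.31, PSMC3 0.17, PSMD3 0.22, RFXAP 0.024, S1PR2 0.11, SAMHD1 0.28, SHMT2 0.34, SLBP 0.032, SOX11 0.31, SYK 0.24, TLR9 0.077, TNFRSF13B 0.0058, TXNIP 0.34, XRCC6 0.32. It also turned for 8 named genes that were called under neither. Limited to the 5 libraries it turned for 30 called genes: ANAPC11 0.24, ANAPC7 0.13, BAK1 0.15, BIK 0.052, BTK 0.52, CCND3 0.22, CD72 0.076, CD79A 0.28, CD79B 0.14, CDC23 0.018, CDK4 0.17, E2F3 0.38, E2F7 0.32, FZR1 0.14, GLA 0.28, GPI 0.070, GUSB 0.12, H1FX 0.16, H3F3B 0.13, IRF8 0.068, NHEJ1 0.10, PMAIP1 0.070, PSMB8 0.25, PSMB9 0.14, SAMHD1 0.048, SHMT2 0.17, SOX11 0.032, SYK 0.0039, TXNIP 0.076, XRCC6 0.090. There 6 more turned without a call. The cause of these changes beyond the shift of all genes was not tested. The depth is uncertain, since the per-million scale of the values is unexplained, and no counting interval is given.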
